A study of Dunaliella salina with 12 samples.

Results

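Genes of Dunaliella salina whose transcripts were lower after sorbitol was added to the medium, and lower still after NaCl was added in its place, numbered 157 of the 82333 assembled genes measured (0.191%). They were chosen by their measured values in all 12 libraries, read here as FPKM, a fragment count divided by transcript length and by library total; no source names the unit, which was inferred from the values. With N, S and H for the mean log2(FPKM + 1) of NaCl, sorbitol and H2O2 libraries minus that of control libraries, a chosen gene had a control mean from 10 to below 1000 FPKM, S of -0.5 or less, N at least 1 below S, and H between -0.4 and 0.4. Every sorbitol library also had to lie below all 3 control libraries, and every NaCl library below all 3 sorbitol libraries. The falls with sorbitol and NaCl and the small H2O2 difference are therefore descriptions of the choice, with no test.

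D. salina, a single-celled green alga found in brines, has no rigid cell wall. In a more concentrated medium its cells lose water and shrink, and they recover their volume by accumulating glycerol, made from photosynthetic products and from starch. Sorbitol, a sugar alcohol, raises the osmotic strength without adding ions, NaCl adds osmotic strength together with sodium and chloride, and H2O2 is an oxidant.

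All cells belonged to strain 435, were labelled as 5 days old, and had grown at 25 °C with 16 h of light at 8000 lx and 8 h of dark. In all 4 groups the cells were pelleted and then kept for 2 h in fresh medium with a base of 1.5 M NaCl. Control medium had no addition, and the others had a further 1.5 M NaCl, 1.5 M sorbitol or 0.4 mM H2O2. Each group had 3 libraries of total RNA from whole cells, and nothing in the labels says that they came from separate cultures, so the spread between them may be technical. Because dissolved NaCl gives more particles per mole than sorbitol, NaCl and sorbitol differed in osmotic strength as well as in ions, and these cannot be told apart.

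The libraries summed to between 1065190 and 1133350 FPKM and listed between 37005 and 42727 genes above 0. Absolute depth is not held by these values. Relative depth, estimated from the spacing of the lowest values (0.2 to 1.2 FPKM), ran from 0.917 to 1.2 around a mean of 1. The IDs are those of a de novo assembly, with a component (a cluster of overlapping sequences) and a gene within it, and 0 of them matched the 16683 genes of the reference table for the species. With no names beside the IDs, no function is given for any gene here, and neither pathway lists nor markers of the species could be matched. FPKM is relative to the library, so less of a transcript per cell and more of all other transcripts cannot be told apart.

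The median level of the chosen genes was 19.1% of the control mean with NaCl (range 2.58% to 32.4%) and 51.7% with sorbitol (17.4% to 69.8%). On the log2(FPKM + 1) scale the median difference from control was -2.17 with NaCl and -0.87 with sorbitol, and that between NaCl and sorbitol was -1.26. Over all 27038 genes at 1 FPKM or more in at least 3 libraries, the median differences were 0.03, 0.07 and -0.02. The median of the group means was 24.2 FPKM in control, 11.4 with sorbitol and 3.97 with NaCl. The lowest control library was above the highest sorbitol library by a median of 1.53 times (1.01 to 4.16), and the lowest sorbitol library above the highest NaCl library by 2.02 times (1.15 to 12.1).

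The library medians within a group were close to each other over these genes. The median FPKM of the 157 genes was 22.9, 23.9 and 23.0 in control replicates 1, 2 and 3, and 26.1, 25.7 and 22.8 in the H2O2 replicates. It was 12.1, 11.4 and 10.8 with sorbitol and 4.08, 4.16 and 3.92 with NaCl. In this median the control, sorbitol and NaCl libraries could not overlap, since the rule sets their order in every chosen gene. The H2O2 libraries overlapped control, and the H2O2 limit of the rule keeps the H2O2 mean of each gene near control. Neither outcome is therefore a test. Within a gene the replicates spread more with NaCl than in the other groups, with a median SD of 0.21 log2 against 0.15 in control, 0.14 with sorbitol and 0.17 with H2O2. For all 10073 genes of the same control range these SDs were 0.14 with NaCl, 0.11 in control, 0.12 with sorbitol and 0.17 with H2O2. The chosen genes therefore had a larger SD than genes of their control range in control, with sorbitol and with NaCl. That range matches the level in control only. With sorbitol and NaCl the chosen genes were lower, while the median NaCl difference of all genes of the range was 0.04. Among all genes the NaCl SD was 0.16 at 10 to below 30 FPKM in control and 0.08 at 100 to below 1000. The part of level in the larger SD was not tested. NaCl replicate 3 was the lowest NaCl library in 77 of the 157 genes (49.0%), against 27.7% of the genes of the range. For NaCl replicates 1 and 2 the shares were 22.3% and 29.9%, against 46.5% and 26.0%.

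**Figure D1:**
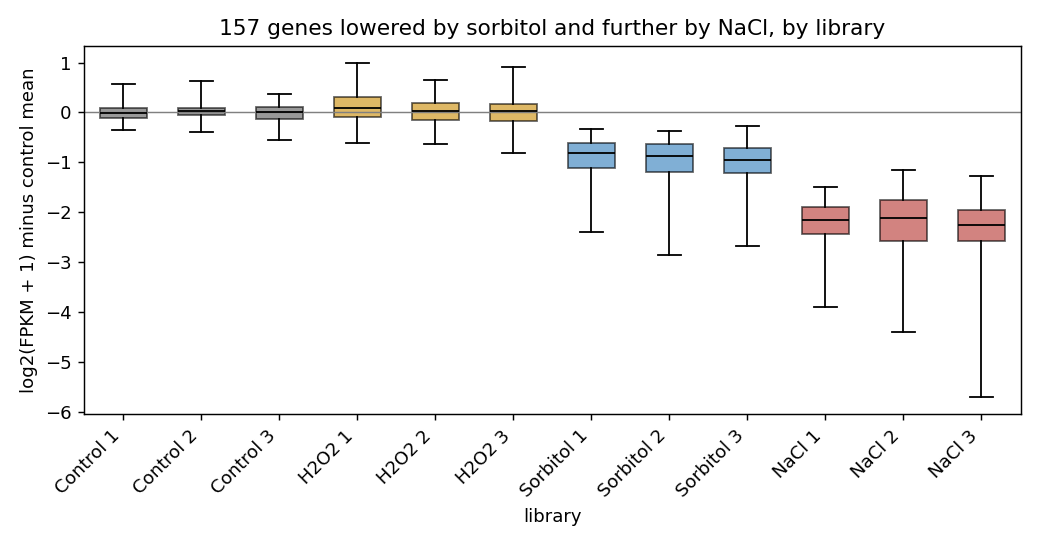
Difference of each library from the control mean, in log2(FPKM + 1), over the 157 chosen genes (boxes, quartiles with the median as a line; whiskers, lowest and highest gene). Library medians lie near 0 in control and H2O2, between -0.82 and -0.96 with sorbitol and between -2.13 and -2.25 with NaCl.

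The genes also held a measurable part of each library. They took 0.97% ± 0.049 (SD, n = 3) of the summed FPKM in control and 0.92% ± 0.044 with H2O2. The share was 0.53% ± 0.024 with sorbitol and 0.22% ± 0.023 with NaCl. The 10 most abundant of the 157 supplied 46.5% of their summed control level.

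The second step was usually the larger on the log2 scale. In 133 of the 157 genes the difference between NaCl and sorbitol exceeded that between sorbitol and control, and in 24 it did not. The rule favours this order, since it asks for 1 log2 between NaCl and sorbitol but for 0.5 between sorbitol and control. With sorbitol, 95 genes were lower than control by less than 1 log2 and 62 by at least 1, 4 of them by at least 2. With NaCl, 105 were lower by at least 2 log2, 11 by at least 3 and 3 by at least 4. The NaCl mean was below 5 FPKM in 88 genes and below 1 FPKM in 11, although no control mean was below 10.2 FPKM. In 2 genes an NaCl library was listed at 0.

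**Figure D2:**
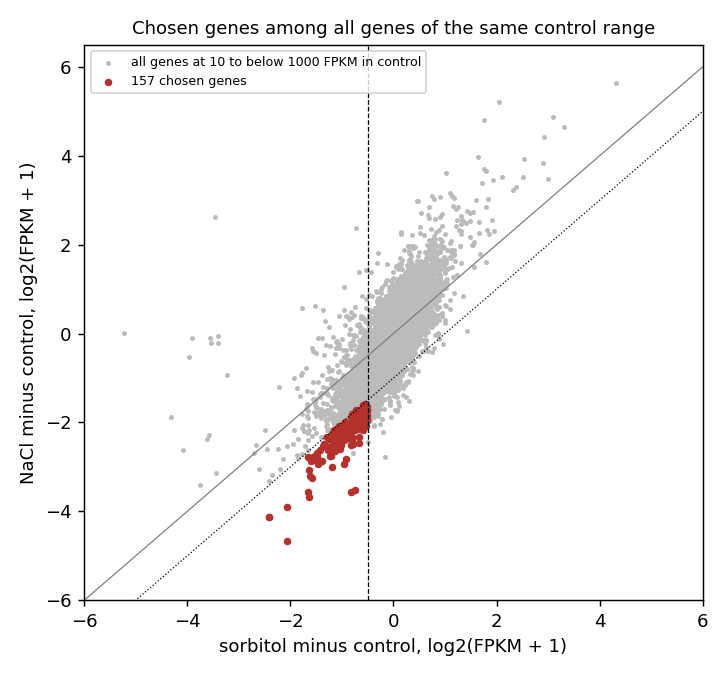
NaCl minus control against sorbitol minus control, in log2(FPKM + 1), for the 10073 genes at 10 to below 1000 FPKM in control (grey) and the 157 chosen genes (red). The dashed line is the sorbitol limit of -0.5, the dotted line lies 1 below equality and the solid line is equality. The chosen genes run from the corner of both limits down to an NaCl difference of -4.67. Both axes share the control libraries.

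The gene c77213_g1 had the largest NaCl difference of the 157, -4.67, and at 2.58% also the lowest NaCl level relative to control. It was at 56.3, 49.1 and 49.2 FPKM in control and at 16.5, 9.02 and 10.3 with sorbitol. With NaCl it was at 2.52 and 1.47 FPKM and was listed at 0 in replicate 3, whereas with H2O2 it was at 77.6, 47.2 and 74.4. The control, sorbitol and NaCl libraries were far apart, and the H2O2 libraries lay below and above the control ones.

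On the log2(FPKM + 1) scale c30130_g1 was second for NaCl (-4.13) and first for sorbitol (-2.42). As a share of the control mean its NaCl level was 4.11%, and c27136_g1 and c7009_g2, described next, were lower on that measure. Its levels were 50.9, 55.2 and 70.5 FPKM in control and 10.3, 12.2 and 8.22 with sorbitol. With NaCl they were 3.12, 2.04 and 2.10 FPKM, and with H2O2 88.6, 64.1 and 69.2. The gene c19004_g1, second for sorbitol (-2.41), was at similar levels, 14.3, 7.82 and 12.1 FPKM with sorbitol and 4.25, 2.02 and 2.15 with NaCl. Its control libraries were less even, at 81.4, 71.8 and 43.0 FPKM, and so were those with H2O2, at 63.5, 64.2 and 35.6. In these 3 genes the sorbitol difference was -2.06 to -2.42, and NaCl differed from sorbitol by a further -1.72 to -2.61.

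A different shape was seen in the pair with the largest gap between NaCl and sorbitol. For c27136_g1 the difference between NaCl and sorbitol was -2.77, while sorbitol differed from control by -0.74. It was at 14.5, 17.6 and 19.7 FPKM in control, 10.04, 11.7 and 8.13 with sorbitol, and 0.52, 0.58 and 0.67 with NaCl. For c7009_g2 the difference between NaCl and sorbitol was -2.73, with -0.83 for sorbitol against control. It was at 20.5, 19.5 and 22.1 FPKM in control, 12.1, 9.51 and 12.0 with sorbitol, and 0.90, 0.79 and 0.82 with NaCl. With sorbitol c27136_g1 was at 57.7% of its control mean and c7009_g2 at 54.2%, and with NaCl they were at 3.42% and 4.05%. With H2O2, c27136_g1 was at 24.3, 13.8 and 20.2 FPKM and c7009_g2 at 24.7, 16.9 and 19.9, overlapping control in each case.

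The most abundant chosen genes also stepped down from control to sorbitol and to NaCl, as the rule requires. With NaCl they kept a larger share of their control level than the genes named above. The highest had a control level of 1019, 1044 and 907 FPKM, went to 540.2, 543 and 539 with sorbitol and to 253, 214 and 192 with NaCl, and was at 857, 751 and 743 with H2O2. These H2O2 libraries were all below the control ones. The second was at 812, 814 and 605 FPKM in control, 422, 332 and 379 with sorbitol, 189, 173 and 138 with NaCl and 691, 664 and 540.3 with H2O2. In both, the third control and the third NaCl replicate were the lowest of their groups. The genes ranked 3, 4 and 5 had control means of 501 ± 50.6, 474 ± 55.4 and 440 ± 54.0 FPKM (SD, n = 3), NaCl means of 113 ± 21.4, 94.9 ± 19.7 and 124 ± 14.7, and sorbitol means of 244 ± 8.88, 226 ± 22.2 and 303 ± 32.4. The rank-5 gene kept more with sorbitol than those ranked 3 and 4, and all 3 ended at similar NaCl levels.

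The chosen gene with the lowest H2O2 difference (-0.39) was among these abundant ones, at 464, 469 and 374 FPKM in control and 354, 305 and 331 with H2O2. The gene with the highest H2O2 difference (0.39) was less abundant, at 30.5, 33.5 and 40.6 FPKM in control and 43.9, 49.1 and 44.4 with H2O2. In neither did the H2O2 and control libraries overlap, although both genes met the H2O2 limit.

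Of the 157 genes, 20 had a control mean of at least 100 FPKM. With NaCl they kept a median of 22.4% of their control level (7.68% to 32.4%), and with sorbitol 51.0% (30.9% to 69.0%). Control replicate 3 was the lowest control library in 17 of the 20, against 26.0% of all 991 genes at this control level. NaCl replicate 3 was the lowest NaCl library in 17 of the 20, against 44.3% of the 991. H2O2 replicate 3 was the lowest in 11 of the 20, against 24.5%, and in 10 genes replicate 3 was lowest in all of these groups. With sorbitol, replicate 2 was the lowest in 11 of the 20, against 23.3%. Control replicate 3 also had the highest relative depth (1.2). The part of these libraries in the results for abundant genes was not tested. This division by level was made after the values were seen.

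**Figure D3:**
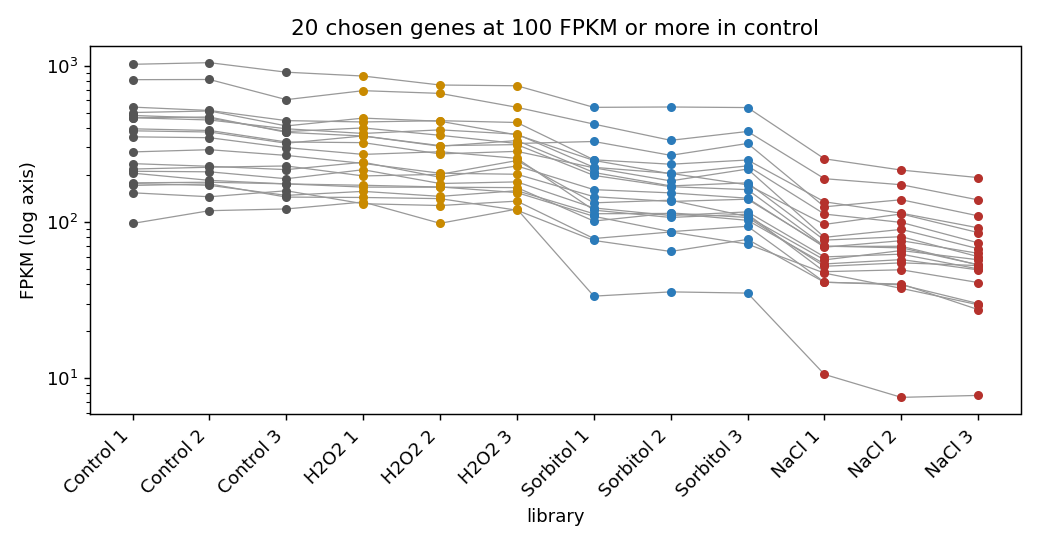
FPKM (log axis) of the 20 chosen genes at 100 FPKM or more in control, 1 line per gene, across the 12 libraries. The lines step down from control and H2O2 to sorbitol and again to NaCl, by amounts that differ between genes. Sorbitol levels ran from 30.9% to 69.0% of control. The gene lowest with sorbitol ended at 7.53 to 10.6 FPKM with NaCl.

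The least abundant of these 20 in control stood apart in the plot of their levels. It was at 97.6, 118 and 121 FPKM in control, 33.5, 35.6 and 35.0 with sorbitol, and 10.6, 7.53 and 7.75 with NaCl. Of the 20 it had the largest NaCl difference (-3.56) and sorbitol difference (-1.66), and was the only one with a positive H2O2 difference (0.06), at 134, 97.8 and 121 FPKM. Next in both was a gene with a control mean of 331 FPKM, at -2.82 with NaCl and -1.55 with sorbitol.

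With H2O2 the 157 genes stayed near control by the rule, and within that limit the direction varied with their level. H2O2 means ran from 74.8% to 138% of the control mean, with a median of 104%. The H2O2 difference was above 0 in 89 genes and below 0 in 68, with a median of 0.06. Of the 9477 genes of the same control range within the same H2O2 limit, 69.3% were above 0, with a median of 0.08. Among the 93 chosen genes at 10 to below 30 FPKM in control, 30.1% were below 0, against 29.6% of all genes of that level within the limit. Among the 44 at 30 to below 100 FPKM it was 47.7% against 27.9%. Among the 20 at 100 FPKM or more it was 19 genes (95%), against 45.5%, with a median of -0.20 against 0.02. In 11 of those 20 every H2O2 library was below every control library, against 9.83% of the 946 genes of that level within the limit. The H2O2 difference and the differences that chose the genes share the control libraries, so these shares are a description.

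**Figure D4:**
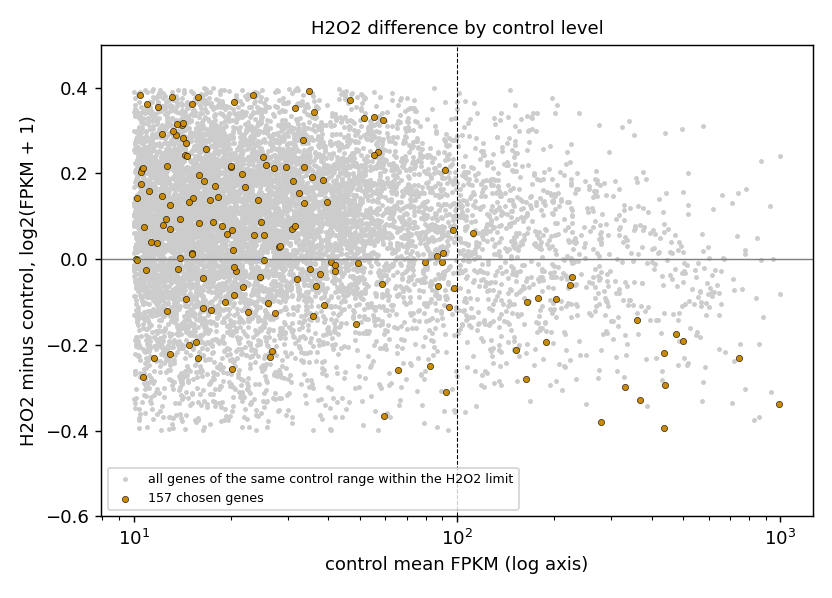
H2O2 minus control, in log2(FPKM + 1), against the control mean in FPKM (log axis), for the 157 chosen genes (orange) and the 9477 genes of the same control range within the H2O2 limit of 0.4 (grey). To the right of the dashed line at 100 FPKM, 19 of 20 chosen genes lie below 0.

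Over all 157 genes, every H2O2 library was above every control library in 22 and below in 13, and the groups overlapped in 122. In all genes of this range within the limit the first of these held for 15% and the second for 3.11%.

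The rule was also applied to 11 libraries at a time and the library left out was then read, against libraries that the rule had used. Without NaCl replicate 1, 2 or 3 the rule chose 165, 172 and 147 genes, and the NaCl library left out lay below every sorbitol library in 165, 172 and 146 of these. The same held for 46.7%, 38.5% and 39.4% of all genes in the control range. The left-out NaCl libraries lay at a median of -1.17, -1.19 and -1.30 from the sorbitol mean, close to the -1.27, -1.24 and -1.25 of the libraries that had chosen the genes. The sorbitol libraries they were measured against had all taken part in the choice, so part of this gap comes from the choice itself.

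Sorbitol libraries were intermediate when left out as well. The sorbitol replicate 1, 2 or 3 left out lay below every control and above every NaCl library in 153 of 155, 154 of 156 and 156 of 159 genes, against 16.8%, 16.6% and 19.2% of all genes in the range. Their median differences from control were -0.82, -0.96 and -0.98. A control replicate 1, 2 or 3 left out lay above every sorbitol library in 154 of 157, 146 of 147 and 148 of 154 genes, against 30.8%, 31% and 30.7%. For the H2O2 limit the share was lower than in all genes for replicate 1, higher for replicate 2 and similar for replicate 3. The H2O2 replicate 1, 2 or 3 left out was within 0.4 of the control mean in 121 of 151 (80.1%), 125 of 143 (87.4%) and 131 of 149 genes (87.9%), where 90.9%, 77.3% and 86.2% of all genes in the range were. The libraries against which each left-out sorbitol or control library was read had taken part in the choice, which had set them apart. Part of these counts therefore comes from the choice itself, and the genes of the range were not chosen in this way. These counts describe the libraries and carry no test.

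Most chosen genes were alone in their component of the assembly, 97 of 157, or 61.8% against 58.5% of all genes in the control range. The 157 genes fell in 154 components. In 3 components there were 2 chosen genes each, with similar values. In the most abundant of these the pair was at 37.5, 40.1 and 41.2 FPKM and at 33.2, 34.7 and 38.7 in control, and at 6.69, 6.98 and 5.2 and at 4.66, 5 and 6.7 with NaCl. Their NaCl differences were -2.48 and -2.51 and their sorbitol differences -0.78 and -1.05. The NaCl differences of the other pairs were -1.66 and -1.75, and -2.5 and -2.34. Genes of a component share sequence, so the estimation may have divided the same reads between them.

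The components of the chosen genes also held 175 genes that the rule did not choose, here called partners, of which 99 could be tested. In 1 limma model of all 12 libraries, with Benjamini-Hochberg adjustment over 27038 genes and a threshold of 0.05, NaCl against control called 26 of the 99 partners lower (26.3%) and 13 higher (13.1%). Of all tested genes, 17.4% were lower and 18.4% higher. Sorbitol against control called 7 partners lower (7.07%) and 5 higher (5.05%), where 6.47% and 6.7% of all tested genes were called. NaCl against sorbitol called 16 partners lower (16.2%) and 5 higher (5.05%), against 11.9% and 8.8%. The chosen genes themselves were called lower in 157, 140 and 157 cases in these comparisons, which the rule had used, so nothing is read from that.

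The median partner differed from control by -0.18 with NaCl and by 0.01 with sorbitol. Of the 99, 6 had an NaCl difference as low as the smallest among chosen genes (-1.58). A gene near 1 FPKM in control could not fall that far on this scale, and genes that met the rule were not partners. Partners are not independent of each other, as 44 of the 99 came from 4 components, and 38 of the 99 lay in the control range of the chosen genes. They may also share reads with the chosen gene of their component, so their calls are not independent of the choice.

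Partners of the named genes differed in direction. Reads may have been divided between each partner and its named gene, and the part of this in either direction was not tested. The other gene in the component of c30130_g1 fell as well, from 16.1, 18.5 and 21.3 FPKM in control to 7.08, 9.13 and 7.16 with sorbitol and 3.24, 2.94 and 5.55 with NaCl. Its log2 fold change was -2.03 ± 0.19 (SE) with NaCl (limma adjusted p = 6.0e-06), -1.16 ± 0.19 with sorbitol (adjusted p = 0.0021) and -0.87 ± 0.19 between them (adjusted p = 0.0069). Of the 99 partners it alone was called lower in all 3 comparisons. With H2O2 it was at 32.4, 26.9 and 24.7 FPKM, above each control library. The other gene in the component of c27136_g1 moved the opposite way. It went from 17.0, 12.8 and 16.2 FPKM in control to 26.5, 20.8 and 31.0 with NaCl (0.72 ± 0.15, limma adjusted p = 0.0027). With sorbitol it was at 18.2, 23.2 and 18.6 (0.36 ± 0.15, adjusted p = 0.15). NaCl against sorbitol was not called for it either (0.36 ± 0.15, limma adjusted p = 0.13). The partner of c7009_g2 was at 7.31, 7.32 and 7.75 FPKM in control and 10.2, 11.0 and 10.01 with NaCl (0.43 ± 0.13, limma adjusted p = 0.026). For this partner neither sorbitol against control (0.16 ± 0.13, limma adjusted p = 0.51) nor NaCl against sorbitol (0.27 ± 0.13, adjusted p = 0.19) was called. Its NaCl call was lost without control replicate 1 or 2, without NaCl replicate 1 or 2, and with no filter on low values. The adjusted p of that call ran from 0.015 to 0.079 over all alternatives.

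**Figure D5:**
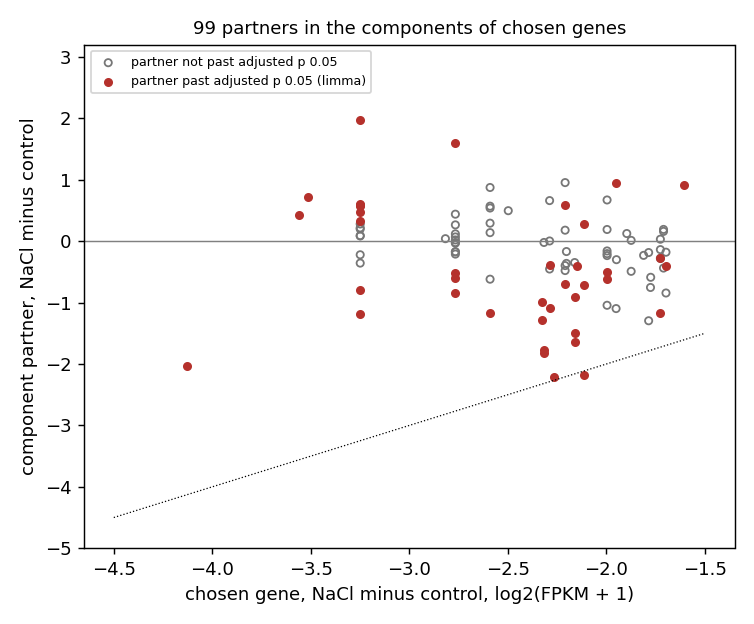
NaCl minus control, in log2(FPKM + 1), of 99 component partners (vertical) against that of the chosen gene in the same component (horizontal; the mean where there were 2). Filled points passed an adjusted p of 0.05 in limma, and the dotted line marks equality. All chosen genes lie below -1.5, whereas partners spread on both sides of 0 and 26 of the filled ones are below it.

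Genes lay close to the limits of the rule on both sides. Missing by the gap between NaCl and sorbitol alone were 307 further genes, the nearest at -0.998 where the nearest chosen gene was at -1.001. The sorbitol limit alone left out 66 genes, the nearest at -0.49 against -0.51 just inside. The control range alone left out 47 genes below it, the nearest at 9.92 FPKM against 10.2 inside, and 1 gene above it, at 1551 FPKM against 990 inside. The H2O2 limit alone left out 8 genes, the nearest at 0.40, and the order of sorbitol below control libraries alone left out 3. Among the genes of the control range, 1.56% were chosen. The share was 1.49%, 1.54% and 1.31% at 10 to below 30, 30 to below 100 and 100 to below 300 FPKM, and 10 of 227 (4.41%) at 300 to below 1000 FPKM. All genes of the higher levels also lay lower. In the same order of level, their median NaCl difference was 0.08, 0.04, -0.23 and -0.41. Their median sorbitol difference was 0.07, 0.05, -0.03 and -0.14.

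The same rule with higher in place of lower chose 84 genes. Without the limits on size, the order of libraries from control through sorbitol to NaCl was about equally frequent both ways in this range, with 1189 genes stepwise lower and 1209 stepwise higher. The difference between 157 and 84 was not tested.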

How the data were processed

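Cutadapt and RSEM are listed, per the submitters' processing notes; their versions and settings, and the assembly used, were not given in the sources used here. Per gene and library the authors deposited 1 value, taken as FPKM because the values have decimals and library sums differ, unlike counts and TPM; no source states the unit. Groups and replicate numbers came from the sample titles. Differences are of mean log2(FPKM + 1), which shrinks changes of low values. Genes with at least 1 FPKM in 3 or more libraries (27038) entered a single limma fit (3.58.1, in R 4.3.3) of all 12 libraries with a mean-variance trend and Benjamini-Hochberg adjustment. The fit was tested on simulated data. Members were found with Python 3.11.15 (pandas 2.3.3, numpy 2.4.6), and matplotlib 3.10.9 drew the plots. No pair of libraries was identical: at most 3.64% of genes above 0 in either had equal values. Read depth is unknown, so no counting error is given. The members and lists were chosen with earlier results of these data known. IDs are given for the 2 genes with the lowest value of each of 3 differences (NaCl or sorbitol against control, NaCl against sorbitol); the 5 most abundant and the extremes for H2O2 are given by rank. Alternatives were another pseudocount, filter, scaling or sample set, the replicate block, and leaving out each library.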

Additional observations from a re-analysis of the deposited data

How the results depend on the processing

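Of the 17 alternatives to the number of chosen genes, 16 gave within 1.5 times of the 157. Keeping only components with 1 gene left 97, by construction. The number was 194 with a pseudocount of 0.1 (154 of the 157 among them), 162 with median-ratio scaling (139), 132 with equal sums per library (129) and 161 with no order required (157). Leaving out each library gave 143 to 172. The raised rule gave 84, 80 and 82 genes as deposited, with median-ratio scaling and with equal sums. With the same 157 genes and a pseudocount of 0.1, the median differences were -2.39 for NaCl, -0.95 for sorbitol and -1.40 between them, and with median-ratio scaling the sorbitol median was -0.96. The equal-sums scaling put the median of all tested genes at 0.12 with sorbitol.

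The counts of partners called lower stayed within 1.5 times in all 19 alternatives each: 19 to 28 for NaCl, 5 to 10 for sorbitol and 11 to 19 between NaCl and sorbitol. With the replicate block they were 23, 7 and 15. The number of partners tested was 99 or 100 except where the filter changed, so the shares called varied more than the counts. For NaCl, 19 of 57 were called with a filter of 5 FPKM and 21 of 170 with no filter, against 26 of 99. The share over all genes was counted only for the main fit. Deviations of libraries with the same number had correlations of -0.083 to 0.047 in 18 pairs, and the numbers were therefore not treated as a pairing. The partner of c7009_g2 kept its call in 14 of 19 alternatives (adjusted p 0.015 to 0.079), those of c27136_g1 and c30130_g1 in 19 of 19. Falls below about 1 FPKM are limited by the unknown number of reads.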
